A study of Rattus norvegicus with 12 samples.

Results

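Tumour necrosis factor (TNF), an inflammatory cytokine, was added to rings of rat aorta growing in a gel of collagen or of fibrin, and the results given here are the changes that TNF made in both gels together. All 12 of the 12 arrays of the series entered. They compare 6 cultures given TNF with 6 control cultures, as the mean of the TNF effect in collagen and the TNF effect in fibrin, for 14324 genes with 1 probe set each. The rings came from male Fisher 344 rats of 1 to 2 months and were cultured in serum-free EBM medium. The 4 groups of 3 arrays were collagen gel without treatment, collagen gel with 10 ng/ml recombinant rat TNF-alpha, fibrin gel without treatment and fibrin gel with the same dose. RNA was taken on day 2, and each sample pooled 4 to 6 ring cultures, so an array averages over all cell types of several rings. The tissue label speaks of collagen for the fibrin samples too, and the groups were taken from the titles. The labels do not say if the replicates are separate animals, and a p-value here covers only the scatter among these arrays.

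TNF binds receptors on endothelial cells, smooth muscle cells, fibroblasts and macrophages of the vessel wall. The receptors act mainly through the transcription factor NF-kB, held in the cytoplasm by IkB proteins until these are degraded, and through MAP kinases and AP-1. In vessels TNF is known for switching on leukocyte adhesion molecules, chemokines and cytokines, and NF-kB also switches on its own inhibitors, which limits the response.

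Levels are log2 values, so a difference of 1 is a doubling. Errors of differences are standard errors (SE) of a limma fit over the 12 arrays, and a gene was called when its Benjamini-Hochberg adjusted p was under 0.05. Over the 12 arrays the mean level of the marker list was 8.91 to 9.51 for fibroblasts, 8.31 to 8.86 for smooth muscle, 7.95 to 8.19 for endothelium and 7.67 to 8.42 for macrophages. Levels of different probe sets cannot be set against each other, so these values do not give the share of a cell type. Arrays of 1 group correlated at 0.9958 or more. The number of arrays limits the precision, and the median SE was 0.066 for the averaged difference and 0.094 for collagen alone.

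TNF changed 1127 of 14324 genes in the average (7.87%), 546 upward (3.81%) and 581 downward (4.06%). The largest rises without overlap in either gel were those of Orm1, an acute-phase protein, at 6.64-fold (2.73 ± 0.16), and of Nos2, the inducible nitric oxide synthase, at 5.19-fold (2.38 ± 0.10). The largest such falls were those of Sult1a1, a phenol sulfotransferase (-1.78 ± 0.13), and of Akr1c14, a steroid dehydrogenase that can share probes with its relatives (-1.64). For Orm1, Nos2 and Akr1c14 the difference between gels was called. Orm1 and Nos2 rose more in collagen and Akr1c14 fell more in fibrin, so these averages stand for neither gel. Most changes were small: the averaged difference was under 0.5 (log2) in size, less than 1.41-fold, for 370 of the genes that rose and 444 of those that fell, and reached 1 for 46 and 15. The 2 gels moved the same way for 519 of the 546 and 570 of the 581, where 55.7% of all genes did so; since a call on the average favours equal signs, this is a description. The controls and TNF arrays did not overlap within either gel for 299 of the genes that rose and 313 of those that fell, against 2.65% and 2.67% of all genes tested. A call on these same arrays favours such separation, so this too is a description.

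Each gel alone gave its own calls, 912 genes in collagen (6.37%) and 448 in fibrin (3.13%), and the average is made of those same arrays, so its calls are no independent support for them. Of the genes that rose in the average, 108 were called in both gels, 236 in collagen alone, 80 in fibrin alone and 122 in neither. Of the genes that fell, the counts were 78, 249, 83 and 171. A call in 1 gel alone does not show a difference between gels: the test of the difference itself called 177 genes (1.24%), among them 80 of the 546 and 28 of the 581.

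Among the genes called in both gels, the median rise was 0.73 in collagen and 0.59 in fibrin, and the median fall -0.72 and -0.66. The difference between the gels was not called for 88 of the 108 that rose and 73 of the 78 that fell. That alone does not make the effects equal. Its 95% confidence interval lay within 0.5 on either side of 0 for 55 of the 108 and 32 of the 78, and for 66.8% of all genes, so for each of these a difference of more than 0.5 lies outside the gene's own interval.

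**Figure D1:**
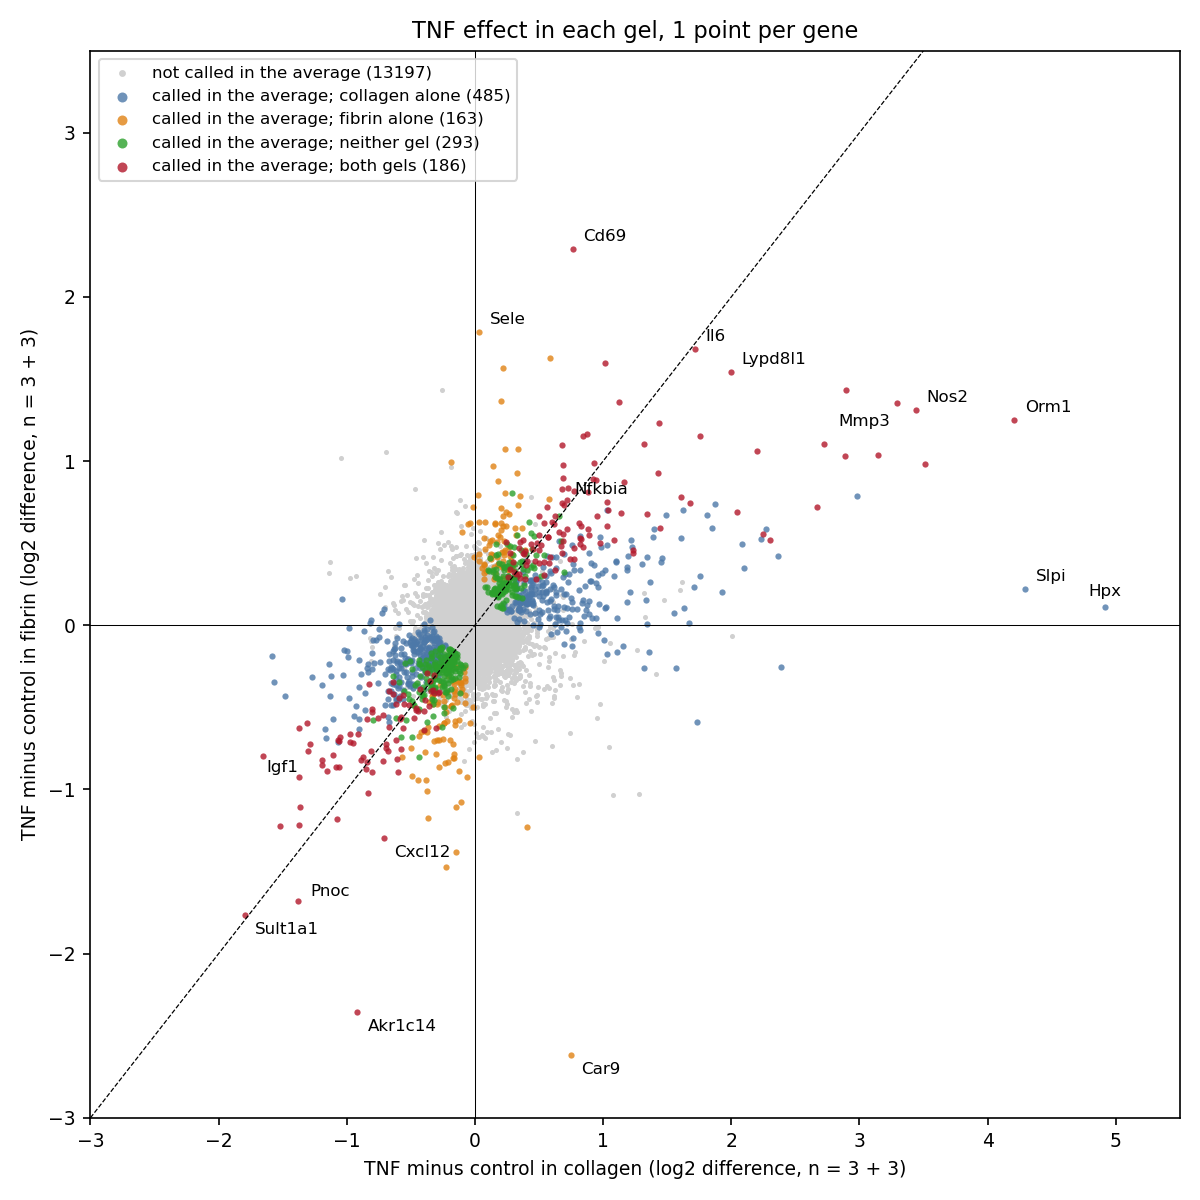
TNF effect in collagen (horizontal axis) against the TNF effect in fibrin (vertical axis), both as log2 differences, with 1 point per gene coloured by the gels in which it was called; the dashed line marks equal effects. Il6 and Sult1a1 lie on the line of equal effects, Orm1 and Nos2 rose more in collagen, Cd69 more in fibrin, and Hpx, Slpi and Sele moved in 1 gel only although their average was called.

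The NF-kB pathway was among the gene groups with the most calls. Of 29 measured components and feedback genes, 14 rose and 0 fell by limma (3 fell at an unadjusted p under 0.05), and 8 of the 14 were called in both gels. The median averaged difference of the 29 was 0.19, against 0.008 over all genes. The promoters of several of these genes hold an NF-kB consensus sequence, and such windows are shown because the genes below were called in both gels. Each window is from the RefSeq promoter table (GRCr8), on the strand of the gene, 5′ to 3′, within 250 bases before the start site, with the matched bases in capitals.
Nfkbia: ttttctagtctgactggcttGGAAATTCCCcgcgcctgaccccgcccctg
Nfkb2: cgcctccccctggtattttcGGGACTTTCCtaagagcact
Tnip1: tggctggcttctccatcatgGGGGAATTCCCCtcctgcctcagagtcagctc
Il6: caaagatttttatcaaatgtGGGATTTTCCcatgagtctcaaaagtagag
Vcam1: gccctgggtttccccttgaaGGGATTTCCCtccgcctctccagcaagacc
Irf1: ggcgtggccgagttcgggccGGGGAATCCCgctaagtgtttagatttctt
Tap1: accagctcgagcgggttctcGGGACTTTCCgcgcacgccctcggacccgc
Ifngr2: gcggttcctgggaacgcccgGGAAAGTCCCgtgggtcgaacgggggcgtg
Tfpi2: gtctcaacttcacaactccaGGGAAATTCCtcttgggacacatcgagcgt

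The windows lie at chr6:78597074-78597123 (minus strand) for Nfkbia, chr1:255108334-255108373 (plus strand) for Nfkb2, chr10:39585016-39585067 (minus strand) for Tnip1, chr4:5894614-5894663 (minus strand) for Il6, chr2:206742847-206742896 (minus strand) for Vcam1, chr10:38417850-38417899 (plus strand) for Irf1, chr20:4668569-4668618 (minus strand) for Tap1, chr11:44265611-44265660 (plus strand) for Ifngr2 and chr4:32941386-32941435 (minus strand) for Tfpi2. All lie upstream of the start in the annotation, and the matched bases run from -139 for Tfpi2 to -11 for Nfkb2, counted back from the start site. Tnip1 has 3 overlapping matches and the other 8 windows have 1 each. The match of Nfkbia and that of Ifngr2 read as the consensus on the opposite strand.

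Promoters were found for 11823 of the tested genes. The NF-kB consensus, searched on both strands, was present in 466 of them (3.94%), in 16 of 87 promoters of genes that rose in both gels (18.4%), in 52 of 433 that rose in the average (12%) and in 16 of 462 that fell (3.46%). Among the small shared rises described further on, it was present in 4 of 93 (4.3%). The AP-1 site TGANTCA was present in 5.49% of all promoters and in 12.6% of those of genes that rose in both gels. The interferon-response core GAAANNGAA was present in 7.09% of all promoters and in 9.2% of those of genes that rose in both gels, and in 11.5% of those that rose in the average. No NF-kB match overlapped another motif in the genes that rose. A match is a stretch of letters and was not tested for binding.

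**Figure D2:**
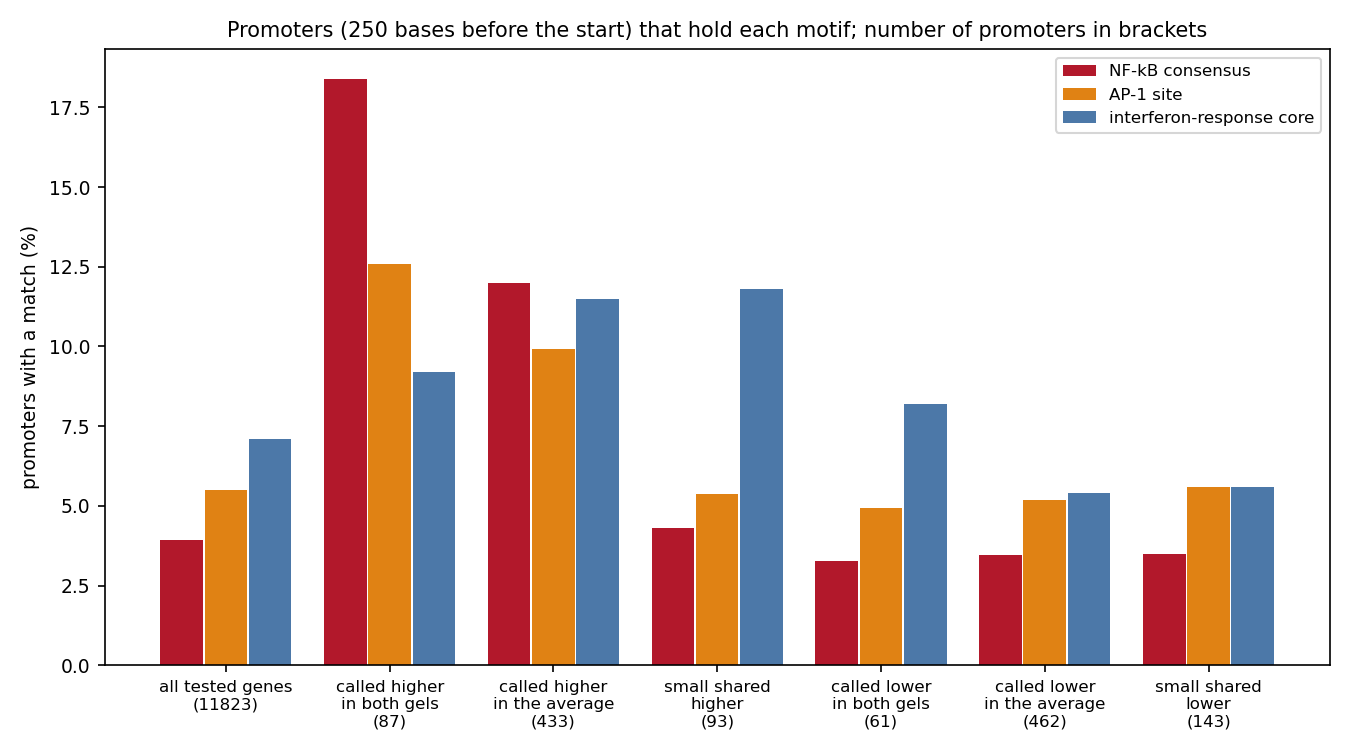
Share of promoters (percent, vertical axis) that hold an NF-kB consensus, an AP-1 site or an interferon-response core, for all tested genes and for 6 sets of called genes, with the number of promoters under each set. The NF-kB bar stands at 18.4% for genes that rose in both gels, at 3.94% for all genes and at 4.3% for the small shared rises.

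Nfkbia (probe set 10890024) encodes IkB-alpha, the inhibitor that NF-kB itself induces. Its level was 10.07, 9.98 and 10.03 in collagen controls and 10.70, 10.70 and 10.78 with TNF, and 10.88, 10.77 and 10.86 in fibrin controls and 11.62, 11.48 and 11.62 with TNF. Every TNF array lay above every control array of its gel, and fibrin controls lay about as high as collagen TNF arrays. The averaged rise was 0.72 ± 0.047 (limma adjusted p = 1.12e-06), 0.70 in collagen and 0.74 in fibrin, and the 95% interval of the difference between gels ran from -0.16 to 0.24.

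Further genes of the list rose in both gels. Tnip1, a partner of the ubiquitin-editing enzyme A20, read 7.62, 7.60 and 7.63 in collagen controls, 8.62, 8.49 and 8.61 in collagen TNF arrays, 8.33, 8.38 and 8.23 in fibrin controls and 9.08, 8.90 and 8.95 in fibrin TNF arrays. All 6 TNF arrays of Tnip1 lay above all 6 controls whatever the gel, as was so for 88 of the 546 genes that rose. Nfkbie, which encodes IkB-epsilon, rose by 0.73 ± 0.059, and its 6 TNF arrays also lay above all 6 controls. Birc3 (cIAP2), a ubiquitin ligase of the TNF receptor complex that protects cells from death, rose by 1.18 ± 0.075 and Ier3, an early-response survival gene, by 0.71 ± 0.072. Nfkb2, the precursor of the p52 subunit, rose by 0.58 ± 0.044 (0.67 in collagen and 0.48 in fibrin).

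Of the ligand and its receptors, 1 was called. Tnf itself had an averaged difference of 0.04 ± 0.11 (adjusted p = 0.892) and Tnfrsf1a, the widely expressed receptor, one of -0.01 ± 0.050 (adjusted p = 0.944). Tnfrsf1b, the second receptor, rose by 0.34 ± 0.078. Over 30 measured members of the TNF superfamily and its adaptors, 6 rose and 2 fell, with a median of 0.05. Fas, a death receptor, rose by 0.53 and Tnfrsf9 (4-1BB), a costimulatory receptor, by 0.76.

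Tnfrsf11b, which encodes osteoprotegerin, the decoy receptor for RANKL, was the family member that fell in both gels. It read 9.60, 9.42 and 9.63 in collagen controls against 8.87, 8.78 and 8.58 with TNF, and 9.20, 9.05 and 8.97 in fibrin controls against 8.42, 8.35 and 8.14 with TNF. The 6 TNF arrays lay below all 6 controls. The averaged fall was -0.79 ± 0.072 (limma adjusted p = 2.03e-05), nearly equal in collagen (-0.81) and fibrin (-0.77), with an interval of the difference from -0.27 to 0.35.

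Of 27 measured interleukins and colony-stimulating factors, 10 rose and 1 fell in the average, and 2, Il6 and Lif, were called in both gels. Il6 (probe set 10859799), which drives the acute-phase response, read 6.39, 6.07 and 5.59 in collagen controls and 7.53, 7.92 and 7.76 with TNF, and 9.08, 8.52 and 8.17 in fibrin controls and 10.56, 10.07 and 10.19 with TNF. The untreated fibrin arrays lay above the TNF arrays of collagen, yet the step with TNF was alike, 1.72 in collagen and 1.68 in fibrin. The average was 1.70 ± 0.16 (limma adjusted p = 3.30e-05), and the interval of the difference, -0.75 to 0.68, is wide. Lif, a cytokine that signals through the same gp130 receptor chain, rose by 0.96 ± 0.11 (0.93 and 0.99).

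Chemokines, which draw leukocytes to a site, had the largest share of calls of the 40 lists: 19 of 34 rose and 1 fell, with a median of 0.62. The size of the rise was not common to both gels, since the difference between gels was called for 9 of the 34. Ccl9, a monocyte chemokine, read 5.48, 5.42 and 4.94 in collagen controls and 8.85, 8.57 and 8.97 with TNF. In fibrin it read 7.02, 7.07 and 7.20 in controls and 8.46, 7.94 and 7.83 with TNF. Both gels rose without overlap, by 3.52 and 0.98. Ccl19, which guides dendritic cells and T cells, rose by 2.89 and 1.03, the monocyte attractant Ccl7 by 2.67 and 0.72, and Cxcl16, a scavenger receptor and chemokine, by 1.08 and 0.52, each called in both gels.

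Cxcl12, the chemokine that retains progenitor cells through CXCR4, went the other way and was the only chemokine called lower. Its level was 11.42, 11.55 and 11.52 in collagen controls, 10.79, 10.69 and 10.88 in collagen TNF arrays, 10.30, 10.85 and 10.87 in fibrin controls and 9.13, 9.59 and 9.41 in fibrin TNF arrays. TNF arrays lay below the controls within each gel. The averaged fall was -1.0 ± 0.10 (limma adjusted p = 5.66e-05), -0.71 in collagen and -1.30 in fibrin, and the difference between gels was not called (adjusted p = 0.23).

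Of 18 leukocyte adhesion molecules, 3 rose and 0 fell by limma (1 fell at an unadjusted p under 0.05), and the median was 0.02. Vcam1, the endothelial and smooth muscle ligand of the integrin VLA-4, read 11.60, 11.72 and 11.75 in collagen controls against 12.17, 12.33 and 12.28 with TNF, and 12.36, 12.55 and 12.40 in fibrin controls against 12.94, 12.96 and 13.04 with TNF. The step was 0.57 in collagen and 0.54 in fibrin, without overlap in either. Icam1, the ligand of LFA-1, rose by 0.67 ± 0.058 (0.82 and 0.53). The third call, Sele (E-selectin), came from fibrin: it rose by 1.79 there and changed by 0.04 in collagen, and the difference between gels was called.

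**Figure D3:**
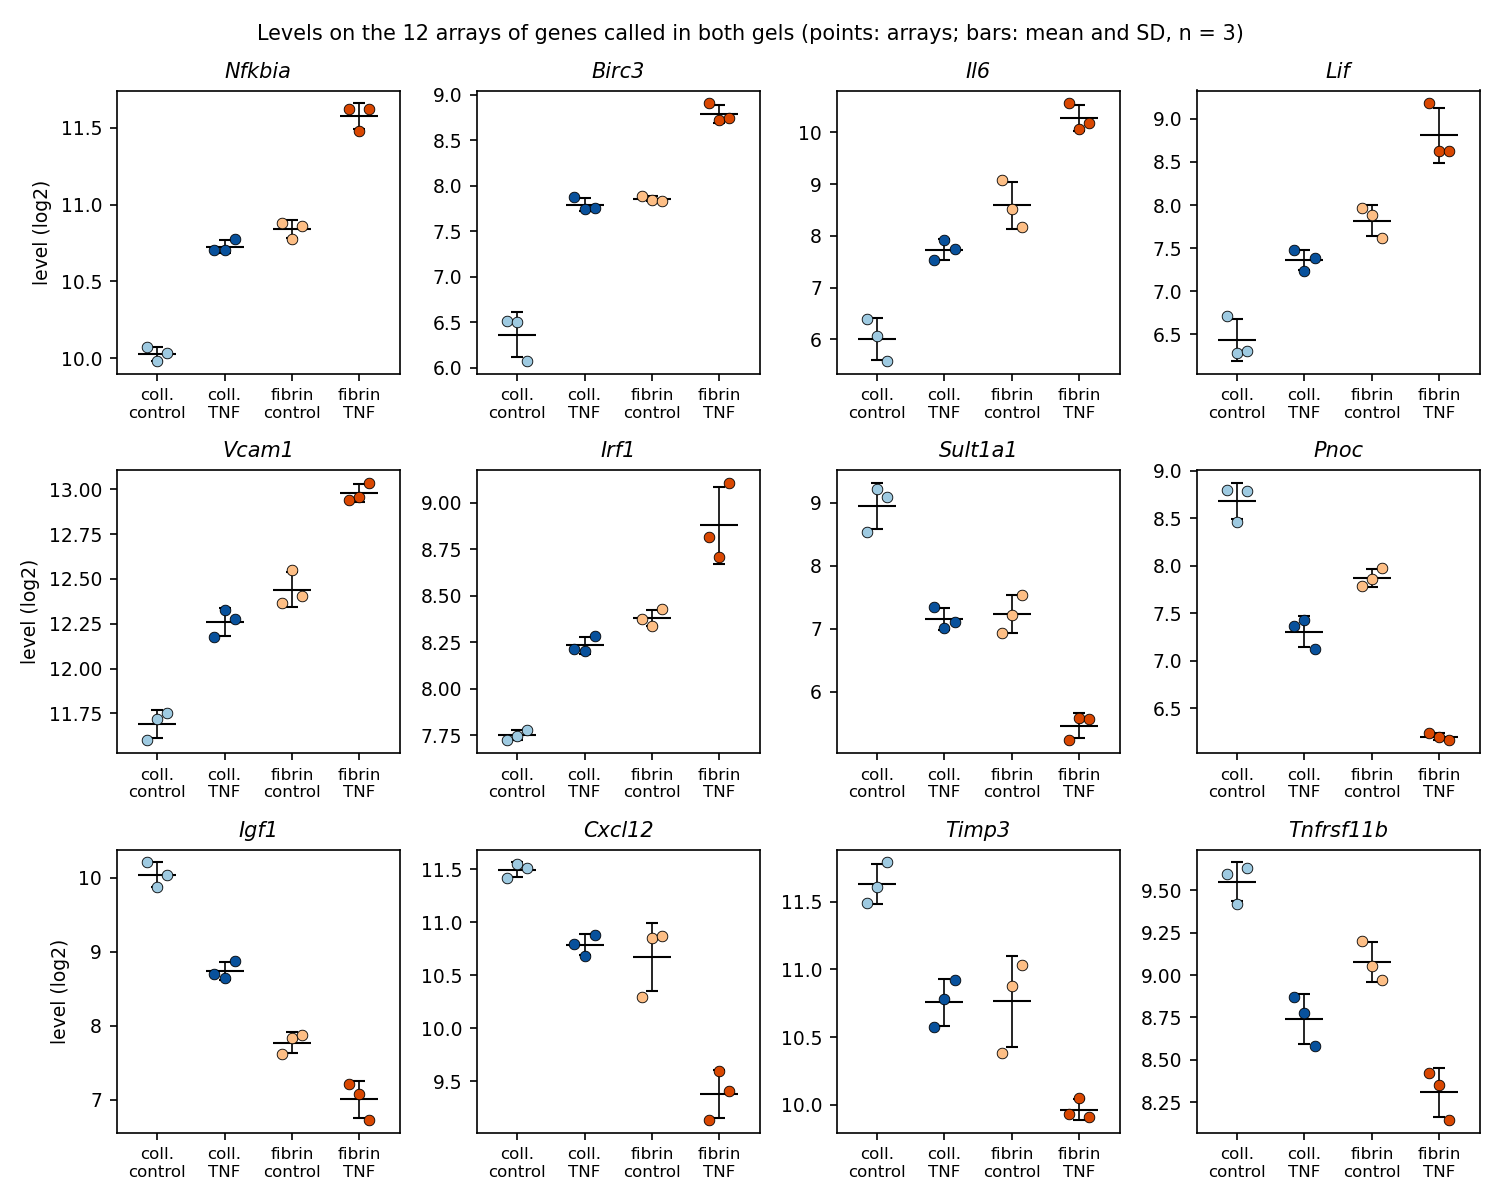
Levels (log2, vertical axes) on the 12 arrays of 12 genes that were called in both gels, with 1 point per array and bars for the mean and SD (n = 3) of each group. Nfkbia, Birc3, Il6, Lif, Vcam1 and Irf1 rose with TNF in both gels, Sult1a1, Pnoc, Igf1, Cxcl12, Timp3 and Tnfrsf11b fell, and no TNF array overlaps the controls of its own gel.

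Of 28 measured genes of antigen processing and presentation, 9 rose and 0 fell in the average by limma, and 4 of the 9 were called in both gels, with 1 lower at an unadjusted p under 0.05. The difference between gels was called for 0 of the 28, against 1.24% of all genes tested, with 3 at an unadjusted p under 0.05. A count of 0 is near that share, so it does not make the effects equal. The 3 immunoproteasome subunits, which replace the standard proteasome subunits in inflamed cells, rose together: Psmb8 by 0.62 ± 0.099, Psmb9 by 0.66 ± 0.065 and Psmb10 by 0.65. Psmb8 read 7.15, 7.50 and 7.21 in collagen controls against 7.95, 7.78 and 7.96 with TNF, and 8.58, 8.45 and 8.54 in fibrin controls against 9.49, 8.84 and 9.14 with TNF. Within each gel the groups did not overlap. Tap1, a subunit of the transporter that carries peptides to class I molecules, rose by 0.48 ± 0.053 (0.63 and 0.34).

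Irf1, a transcription factor that induces these genes, rose by 0.49 ± 0.063 (limma adjusted p = 2.93e-04), 0.48 in collagen and 0.50 in fibrin. Its levels were 7.73, 7.74 and 7.78 in collagen controls and 8.21, 8.20 and 8.29 with TNF, and 8.38, 8.34 and 8.43 in fibrin controls and 8.82, 8.71 and 9.11 with TNF. Both chains of the interferon-gamma receptor rose as well, Ifngr1 by 0.50 ± 0.049 and Ifngr2 by 0.32 ± 0.048, and in both genes the 6 TNF arrays lay above all 6 controls. Their differences between gels were near 0, with intervals from -0.24 to 0.18 for Ifngr1 and from -0.22 to 0.20 for Ifngr2. In the wider list of JAK-STAT and gp130 signalling, 9 of 31 rose and 0 fell (4 at an unadjusted p under 0.05), the rises including Jak2, a kinase of cytokine receptors, by 0.84 ± 0.071 and Il2rg, the common gamma chain, by 1.21 ± 0.082.

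Of 39 interferon-response genes, 16 rose and 0 fell by limma (0 at an unadjusted p under 0.05), and 38 had an averaged difference above 0. The median was 0.36, with 0.44 in collagen and 0.17 in fibrin, and Irf1 was the 1 member called in both gels. Mx1, an antiviral GTPase that can share probes with its relatives, rose by 1.03 (1.75 and 0.30). Gbp5, a guanylate-binding protein, read 7.84, 7.91 and 7.89 in collagen controls and 8.76, 8.33 and 8.53 with TNF, and 10.70, 10.85 and 10.79 in fibrin controls and 11.56, 10.88 and 11.89 with TNF. The fibrin TNF replicate 2 lay close to the fibrin controls in Gbp5. This array also weighs on the count of the list, which was 25 without fibrin TNF replicate 2. The count was 7 without collagen TNF replicate 1, 9 without fibrin control replicate 3, fibrin TNF replicate 1 or fibrin TNF replicate 3, and 10 without collagen TNF replicate 3 or fibrin control replicate 2.

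Acute-phase and antiprotease proteins rose in 9 of 25 measured members and fell in 0 by limma (2 at an unadjusted p under 0.05), but the difference between gels was called for 10 of the 25. The members called in both gels were Orm1 and Ptx3. Orm1 (orosomucoid 1), a plasma acute-phase protein, read 5.20, 4.96 and 4.92 in collagen controls and 9.60, 9.18 and 8.91 with TNF, and 10.27, 9.97 and 9.59 in fibrin controls and 11.69, 10.83 and 11.06 with TNF. Its averaged rise of 2.73 ± 0.16 is a mean of 4.21 and 1.25, and the untreated fibrin arrays of Orm1 lay in or above the range of the collagen TNF arrays. Ptx3, a pattern-recognition protein made by vessel cells, rose by 2.20 and 1.06, and its 6 TNF arrays lay above all 6 controls.

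Enzymes of nitric oxide and prostaglandin synthesis gave 6 rises and 2 falls among 32 measured (4 falls with the replicate block within gels). Nos2, the inducible nitric oxide synthase, read 4.94, 4.67 and 5.13 in collagen controls and 8.16, 8.30 and 8.61 with TNF, and 8.56, 8.65 and 8.76 in fibrin controls and 9.78, 9.91 and 10.21 with TNF. Its rise was 3.44 in collagen and 1.31 in fibrin, a called difference. Ass1, which regenerates arginine, the substrate of Nos2, rose by 1.46 ± 0.10 (1.76 and 1.15), and all 6 TNF arrays of Ass1 exceeded all 6 controls. Ptgir, the prostacyclin receptor, rose equally within error (0.57 and 0.54), while Hpgds, the haematopoietic prostaglandin D synthase and a mast cell marker, fell by -1.37 and -0.92. The constitutive endothelial synthase Nos3 (0.09 ± 0.080, adjusted p = 0.593) and the inducible cyclooxygenase Ptgs2 (0.23 ± 0.12, adjusted p = 0.314) were not called.

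Of 28 matrix metalloproteinases, ADAMTS proteases and TIMPs, 7 rose and 4 fell. Mmp3 (stromelysin-1) read 8.37, 8.27 and 7.97 in collagen controls and 11.49, 11.51 and 11.49 with TNF, and 10.97, 10.48 and 9.96 in fibrin controls and 11.99, 11.96 and 11.52 with TNF. Its 6 TNF arrays lay above all 6 controls. The aggrecan- and COMP-cleaving proteases Adamts4 and Adamts7 rose by 1.02 and 0.91, both called in both gels. Timp3, a matrix-bound inhibitor of such proteases, fell by -0.84 ± 0.10, from 11.49, 11.61 and 11.79 to 10.57, 10.78 and 10.92 in collagen and from 10.38, 10.88 and 11.03 to 9.93, 10.05 and 9.91 in fibrin. Timp1, a secreted inhibitor, rose by 1.02 in collagen and by 0.11 in fibrin, where it was not called, so its average of 0.57 is not a common effect.

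Clotting genes changed as well, with 5 rises and 3 falls among 23. Tfpi2, an inhibitor of plasmin and other serine proteases of the matrix, rose by 1.33 ± 0.17 (1.43 and 1.23). Coagulation factor V (F5) fell by -0.84 ± 0.12, nearly alike in collagen (-0.84) and fibrin (-0.83), although its interval of the difference ran from -0.50 to 0.52. F13a1, the A chain of factor XIII, which crosslinks fibrin, fell by -0.87 ± 0.12. Its level was 9.04, 8.59 and 8.85 in collagen controls against 7.74, 7.49 and 8.09 with TNF, and 6.39, 6.65 and 6.70 in fibrin controls against 5.63, 5.94 and 6.13 with TNF.

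Antioxidant genes gave 11 rises and 1 fall among 32. Slc7a11, the cystine transporter that feeds glutathione synthesis, rose by 0.68 in collagen and 1.10 in fibrin, and Nqo1, a quinone reductase induced by NRF2, by 0.69 and 0.98. Txnrd1, thioredoxin reductase, rose by 0.37. Gpx3, the secreted glutathione peroxidase, was the 1 member that fell, by -0.96 ± 0.084. Sod2, the mitochondrial superoxide dismutase and a classical TNF target, rose by 0.72 in collagen but by 0.10 in fibrin, a called difference. Xenobiotic and steroid metabolism moved in both directions, with 11 rises and 9 falls among 38.

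Sult1a1 (probe set 10725782), which conjugates phenols and drugs with sulfate, was the largest shared fall. It read 8.53, 9.22 and 9.09 in collagen controls and 7.34, 7.0 and 7.11 with TNF, and 6.93, 7.22 and 7.53 in fibrin controls and 5.22, 5.58 and 5.57 with TNF. The fall was -1.80 in collagen and -1.77 in fibrin, with an interval of the difference from -0.54 to 0.60, and the average was -1.78 ± 0.13 (limma adjusted p = 2.88e-06). Aox3, an aldehyde oxidase, fell by -1.37 ± 0.11. Pdk4, the kinase that shuts pyruvate out of oxidation, fell by -1.30 ± 0.12.

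Signalling genes were among the named falls. Pnoc, the precursor of nociceptin, read 8.80, 8.46 and 8.79 in collagen controls and 7.37, 7.43 and 7.12 with TNF, and 7.79, 7.86 and 7.98 in fibrin controls and 6.24, 6.20 and 6.16 with TNF. All 6 TNF arrays lay below all 6 controls, as was so for 48 of the 581 genes that fell. Htr2b, a serotonin receptor, fell by -1.24 ± 0.10 with the same separation, and Vipr2, a receptor of vasoactive intestinal peptide, by -1.02 ± 0.096. Tgfb3, a TGF-beta ligand, fell by -0.71 ± 0.10, while Fst, the secreted activin antagonist follistatin, rose by 1.91 ± 0.11 and Sfrp4, a secreted Wnt antagonist, fell by -1.02 ± 0.12. The rise of Fst was smaller in fibrin, a called difference (fibrin minus collagen, -1.62).

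In the list of IGF, HGF, PDGF and FGF growth factors, 6 of 37 rose and 5 fell (8 with the replicate block within gels). Igf1, a growth and survival factor for smooth muscle, read 10.21, 9.88 and 10.04 in collagen controls and 8.71, 8.64 and 8.87 with TNF, and 7.62, 7.83 and 7.87 in fibrin controls and 7.21, 7.08 and 6.73 with TNF. The averaged fall was -1.04 ± 0.089 (limma adjusted p = 1.20e-05). Among its binding proteins, Igfbp4 fell by -0.85 ± 0.096 (-0.89 and -0.82), Igfbp6 fell by -0.71 ± 0.10 (-0.93 and -0.49), and Igfbp5 rose by 0.91 ± 0.11 (0.92 and 0.89). Igfbp3 was not called in the average (-0.29, adjusted p = 0.0639). Angpt1, the Tie2 ligand that stabilises vessels, rose by 2.30 in collagen and 0.52 in fibrin, and Vegfa had an averaged difference of 0.17 ± 0.11 that was not called (adjusted p = 0.439).

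Fibroblast markers fell in 11 of 23 measured members and rose in 2, with a median of -0.26, and 5 of the 11 were called in both gels. Rises stayed at 2 without collagen TNF replicate 3, fibrin control replicate 1 or fibrin control replicate 2, and were 1 without any of the other arrays and with quantile normalization. The mean level of the list was 9.46 to 9.51 in collagen controls and 9.11 to 9.27 with TNF, and 9.25 to 9.29 in fibrin controls and 8.91 to 9.03 with TNF, so the groups did not overlap within a gel. In pooled rings, fewer cells of a type and less RNA per cell cannot be told apart. Col14a1, a fibril-associated collagen, read 9.92, 10.00 and 10.17 in collagen controls and 8.83, 8.76 and 8.92 with TNF, and 8.71, 8.93 and 8.85 in fibrin controls and 7.75, 8.28 and 8.01 with TNF. Mfap5, a microfibril protein, fell by -1.0 ± 0.057, Cygb (cytoglobin) by -0.84 ± 0.095 and Dpt (dermatopontin) by -0.59. The fall of Mfap5 was smaller in fibrin, a called difference (fibrin minus collagen, 0.57). In the list of other matrix glycoproteins and proteoglycans, 6 of 32 fell and 3 rose (5 rose without fibrin TNF replicate 1 and with the replicate block within gels). Omd (osteomodulin) fell by -0.83 ± 0.098, while Cd44, the hyaluronan receptor, rose by 0.41. Among 27 collagens and collagen-processing genes, 4 fell and 0 rose by limma (2 rose at an unadjusted p under 0.05), and Col3a1, the chain of type III collagen, fell by -0.50.

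Smooth muscle contractile genes fell in 7 of 24 members and rose in 0 by limma (1 at an unadjusted p under 0.05), with a median of -0.13. In fibrin on its own 0 of the 24 were called, with 5 at an unadjusted p under 0.05. Tagln (SM22) read 8.85, 9.15 and 8.83 in collagen controls against 8.23, 8.23 and 7.88 with TNF, and 8.02, 8.42 and 7.95 in fibrin controls against 7.90, 8.11 and 7.55 with TNF. The fibrin groups of Tagln overlapped, and the call of -0.56 ± 0.11 came mainly from collagen. Lmod1, an actin nucleator of smooth muscle, fell by -0.41. The count of the list fell to 4 without any 1 of collagen control replicate 3, collagen TNF replicate 1, collagen TNF replicate 3, fibrin control replicate 2 or fibrin control replicate 3. The mean level of the list was 8.66 to 8.86 in collagen controls and 8.45 to 8.58 with TNF, and 8.45 to 8.69 in fibrin controls and 8.31 to 8.47 with TNF, so that in fibrin the groups overlapped.

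Of 33 macrophage and monocyte markers, 6 fell and 2 rose, with a median of -0.15. Without collagen TNF replicate 2 the balance turned, with 2 falls and 5 rises, and with quantile normalization 7 fell and 4 rose. The count of falls was 3 without collagen control replicate 2, collagen control replicate 3 or fibrin control replicate 2, and 2 without fibrin control replicate 3, fibrin TNF replicate 1 or fibrin TNF replicate 3. Ccr1, a receptor of several CC chemokines, fell by -0.75 ± 0.11 in the average and was called in both gels, at a low level of 3.88 to 5.03. Cd14, the lipopolysaccharide co-receptor, rose by 0.38 and Cd68, a lysosomal marker, by 0.34. The mean level of the macrophage list was 8.31 to 8.42 in collagen controls, 8.13 to 8.39 in collagen TNF arrays, 7.82 to 8.03 in fibrin controls and 7.67 to 7.80 in fibrin TNF arrays. The part of these cell type shifts in the changes of cytokines, chemokines and matrix genes was not tested.

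Of 40 endothelial and angiogenesis genes, 4 rose and 4 fell; Cldn5, a tight junction protein, fell by -0.55 ± 0.081 and was called in both gels. Of 18 neutrophil markers 2 rose, one of them Mmp9, a gelatinase that other cells make too, by 2.23 in collagen and 0.53 in fibrin. The count was 1 without any 1 of collagen control replicate 3, collagen TNF replicate 1 or 2, fibrin control replicate 2 or 3, or fibrin TNF replicate 1 or 2. Neutrophil markers stood at a mean level of 4.51 to 4.62 in collagen controls, 4.77 to 4.87 with TNF, 4.82 to 4.99 in fibrin controls and 4.85 to 5.01 with TNF.

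Of the adipocyte markers 9.09% were called, of the pericyte markers 15.4% and of the mast cell markers 8.33%, against 7.87% of all genes tested. The adipocyte and mast cell counts thus stand near the share of all genes. Of 22 adipocyte markers 2 fell and 0 rose by limma (1 rose at an unadjusted p under 0.05), with a median of -0.13: Cd36, a fatty acid transporter, fell by -0.51 and Pparg, the adipocyte nuclear receptor, by -0.40. Without collagen control replicate 1 or fibrin TNF replicate 2, 4 fell, and without fibrin TNF replicate 3, 1 rose. Of 13 pericyte markers 2 fell (4 with the replicate block within gels), and the mean level of the list was 8.30 to 8.43 in fibrin controls and 8.08 to 8.19 with TNF, without overlap, while in collagen the groups overlapped. Of 12 mast cell markers 1 fell, Hpgds. The mean level of the list was 4.35 to 4.47 in collagen controls and 4.20 to 4.28 with TNF. In fibrin it was 4.21 to 4.30 in controls and 4.11 to 4.13 with TNF, so neither gel showed overlap. That mean includes Hpgds (-1.15). The median averaged difference of the list was -0.06, with 10 of the 12 below 0 and 1 at an unadjusted p under 0.05. The separation is thus no result about the other members.

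**Figure D4:**
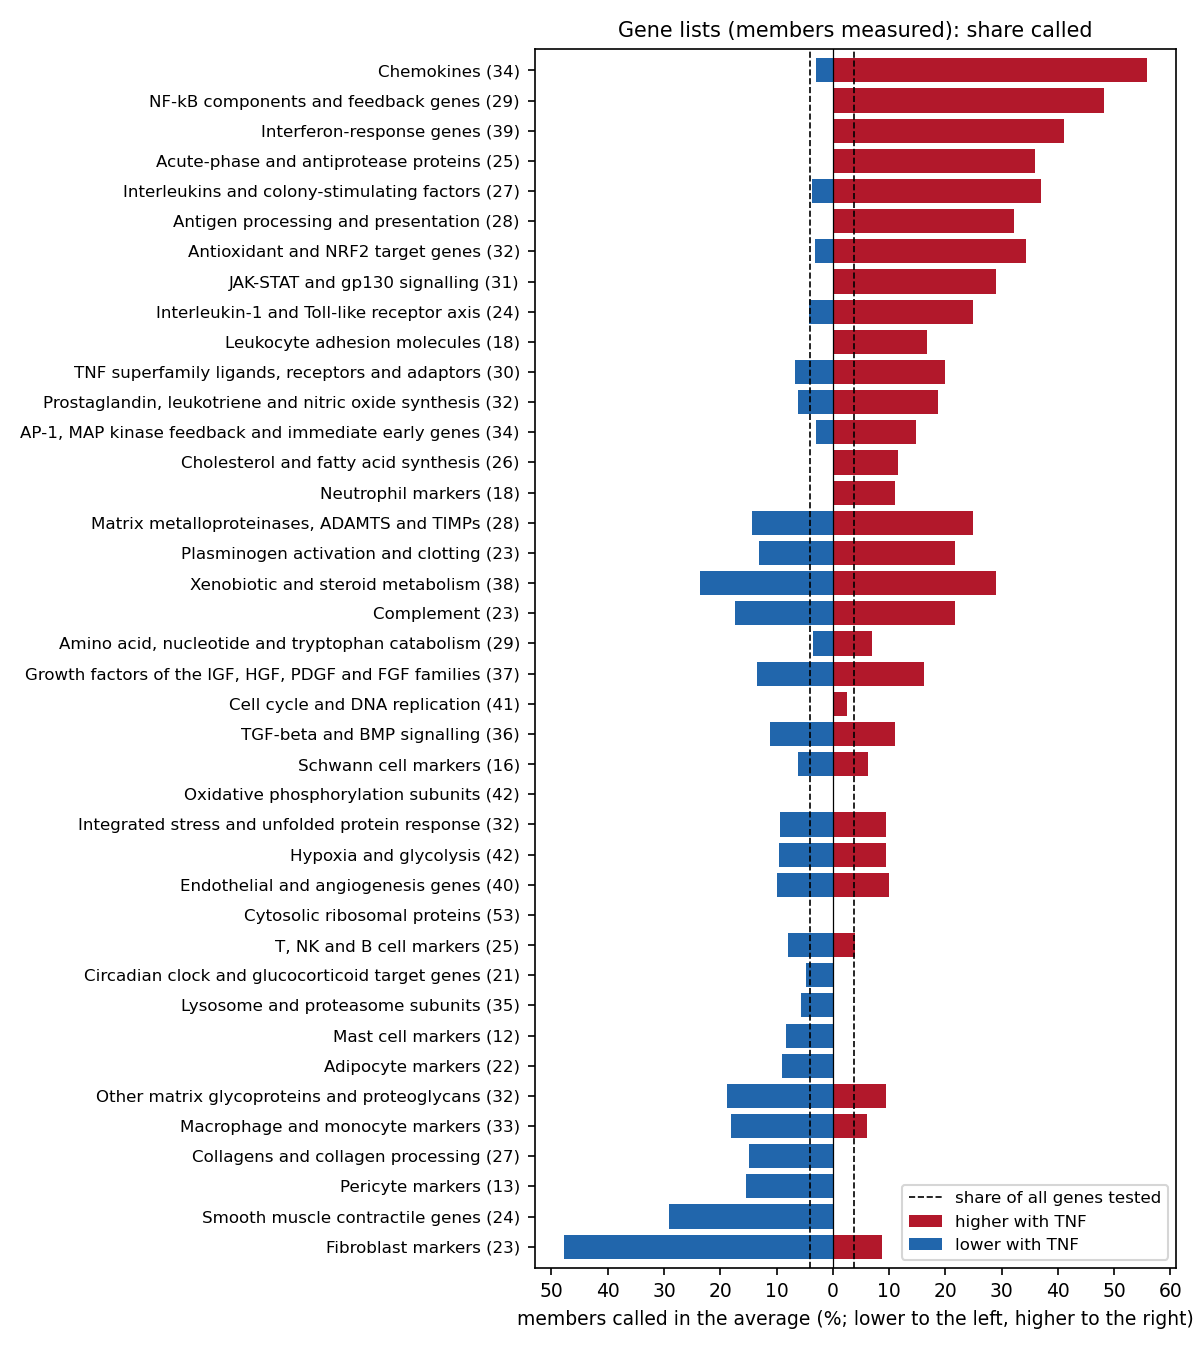
Share of the measured members of 40 gene lists that were called in the average (percent, horizontal axis), higher with TNF to the right and lower to the left, with the number of measured members in brackets; dashed lines mark the share of all genes tested. Chemokines (19 of 34) and NF-kB genes (14 of 29) reached furthest to the right and fibroblast markers (11 of 23) furthest to the left, while ribosomal proteins and oxidative phosphorylation subunits had no bar.

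A set of small shifts showed only when the gels were put together. They were defined as genes called in the average, in neither gel alone, with the same sign in both and an averaged difference under 0.5 in size. There were 281, a share of 24.9% of all calls: 116 rose, by a median of 0.26 (0.24 in collagen and 0.26 in fibrin), and 165 fell, by a median of -0.26 (-0.25 and -0.27). The definition fixes their sign and keeps the gels close, so their agreement is no result. The smallest called difference was 0.14. Within both gels TNF and control arrays did not overlap for 71 of the 116 and 88 of the 165, against 2.65% and 2.67% of all genes tested. An unadjusted p under 0.05 was reached in both gels by 80 of the 116 and 110 of the 165. The difference between gels had its 95% interval within 0.5 of 0 for 231 of the 281, against 66.8% of all genes. These counts come from the same values that made the calls, so they are descriptions.

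These calls rest on all 12 arrays. Between 91 genes (without collagen control replicate 3) and 206 (without fibrin control replicate 1) of the 281 were still called in the average when 1 array was left out, and 64 were called in every one of the 12 such fits. All 281 kept their direction in each. For the 20 genes named here the call held in all 12.

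The ferritin heavy chain Fth1, which stores iron, shows how small the shifts were. It read 13.16, 13.17 and 13.14 in collagen controls against 13.36, 13.34 and 13.39 with TNF, and 13.43, 13.39 and 13.37 in fibrin controls against 13.63, 13.53 and 13.61 with TNF. No array overlapped within a gel. The rise was 0.20 ± 0.041 in the average (limma adjusted p = 7.95e-03), 0.21 in collagen (adjusted p = 0.0514) and 0.19 in fibrin (adjusted p = 0.104).

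Hbegf, a ligand of the EGF receptor, rose by 0.30 ± 0.059, from 9.52, 9.17 and 9.25 to 9.58, 9.64 and 9.61 in collagen and from 9.56, 9.58 and 9.65 to 9.94, 9.87 and 9.86 in fibrin. Clec2d, a lectin-like ligand of an NK cell receptor, rose by 0.28 ± 0.055. Ncf4, a subunit of the phagocyte NADPH oxidase, rose by 0.36 ± 0.075, and Spib, an Ets transcription factor of lymphoid and dendritic cells, by 0.45 ± 0.096 at a low level of 3.90 to 4.82. Abcg1, a cholesterol exporter, rose by 0.33 ± 0.071 and Slc4a7, a sodium bicarbonate cotransporter, by 0.37 ± 0.080. Prkar2b, a regulatory subunit of protein kinase A, rose by 0.28 ± 0.058, the carbonic anhydrase Car13 by 0.38 ± 0.077 and the ubiquitin ligase Rnf149 by 0.31 ± 0.066.

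Among the small falls, P2ry1, an ADP receptor, fell by -0.47 ± 0.091 and Lyve1, a hyaluronan receptor of lymphatic endothelium and of vessel-wall macrophages, by -0.48 ± 0.10. Lyve1 read 7.85, 7.81 and 8.11 in collagen controls and 7.49, 7.24 and 7.50 with TNF, and 6.63, 6.33 and 6.98 in fibrin controls and 6.09, 6.21 and 6.29 with TNF. TNF arrays lay below controls in each gel. Of the transcription regulators among the named falls, Foxp1, a forkhead repressor, fell by -0.22 ± 0.043, Arnt2, a bHLH-PAS partner protein, by -0.43 ± 0.081, the LIM-domain cofactor Ldb2 by -0.48 ± 0.093 and the progesterone receptor Pgr by -0.35 ± 0.069. Foxp1 read 10.14, 10.21 and 10.22 in collagen controls and 9.99, 9.98 and 10.03 with TNF, and 9.99, 10.09 and 10.10 in fibrin controls and 9.85, 9.77 and 9.84 with TNF. Decr1, an enzyme of mitochondrial fatty acid oxidation, fell by -0.34 ± 0.067, the phosphatase Cdc14a by -0.28 ± 0.054, the membrane protein Plxdc2 by -0.35 ± 0.068 and Mageh1 by -0.31 ± 0.062.

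**Figure D5:**
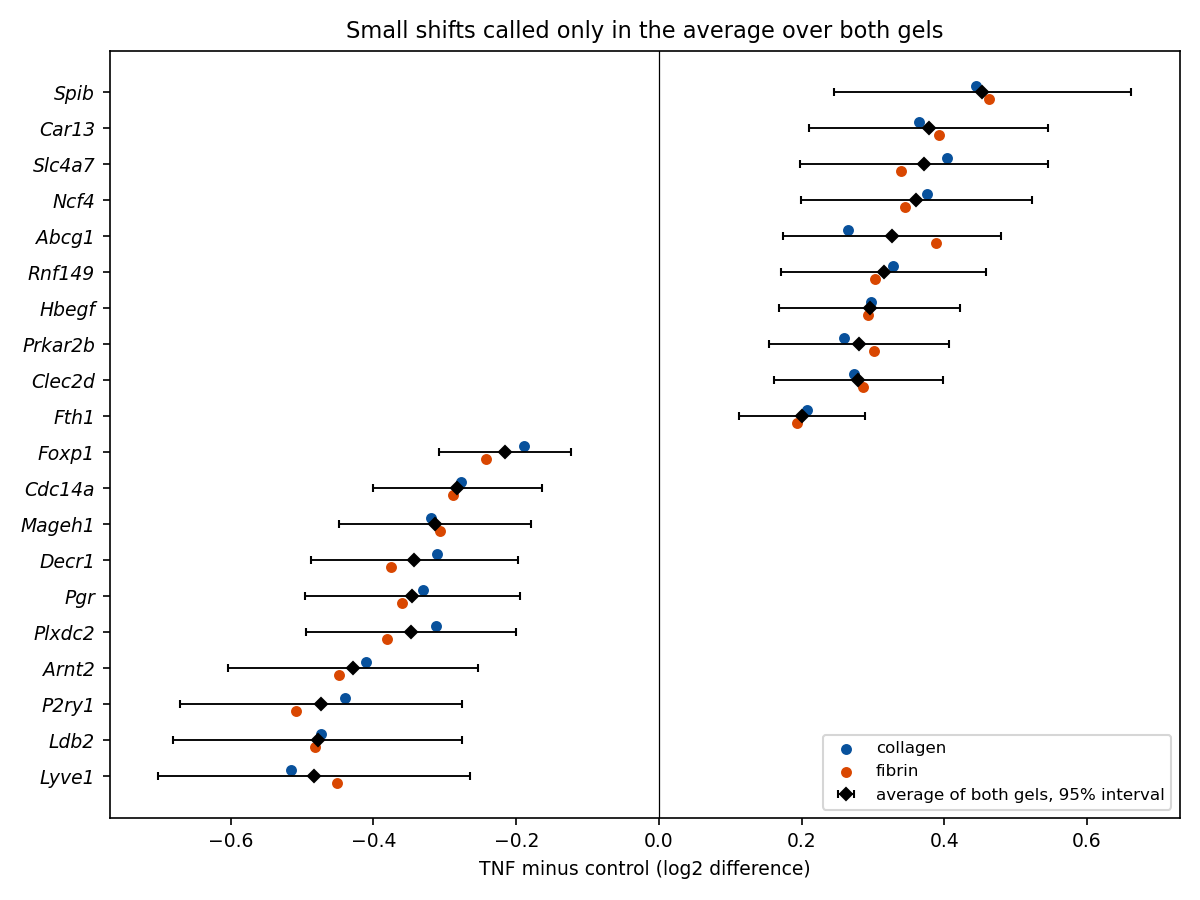
TNF effect (log2 difference, horizontal axis) of the 20 small shared shifts of smallest adjusted p, with the average of both gels and its 95% interval in black and the effect in each gel in colour. The averages run from -0.48 for Lyve1 to 0.45 for Spib, and no interval reaches 0.

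The AP-1 and immediate early list gave 5 rises and 1 fall among 34, with 3 rises without collagen control replicate 3 3 falls without fibrin TNF replicate 1 and 2 with array weights. Dusp1 and Dusp2, phosphatases that switch MAP kinases off, rose by 0.33 and 0.57, while Dusp10, another such phosphatase, fell by -0.48. Fosl1, an AP-1 subunit, rose by 0.37. Of 24 genes of the interleukin-1 and Toll-like receptor axis 6 rose and 1 fell (2 fell without collagen control replicate 3, fibrin control replicate 1 or fibrin TNF replicate 3, with array weights and with the replicate block): Casp4, an inflammatory caspase, rose by 0.48, Tlr2, a receptor of bacterial lipoproteins, by 0.30, and Il1rl1, the receptor of interleukin-33, fell by -0.77. Of 42 hypoxia and glycolysis genes 4 rose and 4 fell, or 5 and 8 with the replicate block within gels. Their median was 0.19 in collagen and -0.17 in fibrin, so the gels went opposite ways. The difference between gels was called for 7 of the 42, against 1.24% of all genes tested, with 26 at an unadjusted p under 0.05.

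Housekeeping lists gave few calls. Among 42 oxidative phosphorylation subunits and 53 cytosolic ribosomal proteins, limma called 0 in the average. An unadjusted p under 0.05 was reached by 5 and 2, and the medians were -0.01 and -0.04. The ribosomal median was -0.14 in collagen, where 3 were called, and 0.06 in fibrin, where 0 were called. The difference between gels was called for 0 of the 53, with 22 at an unadjusted p under 0.05, so the average does not describe either gel. Without collagen control replicate 1, 1 oxidative phosphorylation subunit was called, and without collagen TNF replicate 3 or fibrin TNF replicate 2, 1 ribosomal protein. Among 41 genes of cell cycle and DNA replication 1 was called, the cyclin-dependent kinase inhibitor Cdkn1a, which rose by 0.52; 2 rose without fibrin control replicate 3, without fibrin TNF replicate 2 and with the replicate block.

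The average also leaves changes out. Of the 912 calls in collagen 671 (73.6%) were called in the average, and of the 448 in fibrin 349 (77.9%). Another 332 genes were called in a gel but not in the average, 233 in collagen alone, 91 in fibrin alone and 8 in both gels in opposite directions. Those 8 were Clybl, Fxyd6, Gabrp, Gdf15, Pfkl, Serpina3n, Steap4 and Xpnpep2. In the other direction, an average can be called from 1 gel: Slpi, a protease inhibitor, had 4.29 in collagen and 0.22 in fibrin, and Hpx (hemopexin) 4.91 and 0.11.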

How the data were processed

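Per the labels' protocols, 200 ng of total RNA was labelled for Affymetrix whole-transcript arrays. The deposited values are read as log2 expression from their range, 1.44 to 14.07, since neither scale nor normalization is stated, and per the submitters' processing notes limma was used. Of 27342 probe sets, 15097 carry 1 gene in the platform annotation, 323 several and 11922 none here, and the probe set of highest mean stood for each of 14324 genes. Genes with near-identical relatives can share probes.

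limma 3.58.1 in R 4.3.3 (lmFit, eBayes) fitted 1 mean per group on all 12 arrays. The contrast was the average of the TNF effects in collagen and fibrin, two-sided, with Benjamini-Hochberg adjustment over all genes and a threshold of 0.05; the difference of the effects was fitted alongside. The fit was also run on simulated data with independent noise on each array and equal effects in both gels. That run says nothing on paired arrays or unlike effects. The members, the 40 gene lists and the settings were chosen with earlier results of these data known, and list counts are descriptions.

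Named genes were the 15 largest and 15 smallest averaged differences among calls with no overlap in either gel, 10 small shared shifts each way of smallest adjusted p, calls in opposite directions, the 6 largest and 6 smallest differences between gels among averaged calls, up to 6 called and 3 other members of each described list, and 32 genes by name, of which 28 were analysed. A gene's promoter is the 250 bases before its start in RefSeq (GRCr8).

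Within each gel, control and TNF arrays of the same replicate number deviated together across genes. The correlations between control and TNF arrays were 0.13, 0.14 and 0.14 in collagen and 0.25, 0.14 and 0.16 in fibrin. Arrays of different number within a gel gave 0.01 at most. Between the gels the same numbers gave 0.23, 0.08 and 0.13 for controls and 0.05, 0.03 and 0.14 for TNF arrays. Some different numbers gave as much between the gels. The value was 0.10 for collagen control 3 with fibrin control 2, and 0.03 for collagen TNF 2 with fibrin TNF 1. The numbers may thus pair samples within a gel, while a pairing across gels is less clear, and the main fit used no pairing. With a replicate block across gels, 649 genes rose and 724 fell. The labels name no batch, so none could be tested. Alternatives were other normalizations, priors, array weights and probe set choices, a filter on dim genes, models with no gel term or an additive one, the replicate block, and leaving out each array.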

Additional observations from a re-analysis of the deposited data

Results flagged for a closer look

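For the genes named here, limma's test of the difference between the gels found unlike TNF effects, so their averaged value stands for neither gel. Each value is the TNF effect in fibrin minus that in collagen (log2).

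The effect was lower in fibrin for the acute-phase genes Hpx (-4.80), Slpi (-4.07), Orm1 (-2.96), Ptx3 (-1.14) and Serpina3n (-0.91), and for the chemokines Ccl9 (-2.53), Ccl7 (-1.96) and Ccl19 (-1.86). It was lower for Nos2 (-2.13), the gelsolin relative Scin (-2.11), the protease Mmp3 (-1.94), the Tie2 ligand Angpt1 (-1.78), the activin antagonist Fst (-1.62) and the carboxylesterase Ces1f (-1.46). It was also lower for the carbonic anhydrase Car9 (-3.36), the secretoglobin Scgb1b24 (-2.64), Gabrp (-2.31) and the metalloreductase Steap4 (-2.11). The same held for the steroid dehydrogenase Akr1c14 (-1.44), Fxyd6 (-0.87), the phosphofructokinase Pfkl (-0.79) and the aminopeptidase Xpnpep2 (-0.66). The value is signed, so lower does not always mean weaker. Akr1c14 fell more in fibrin. Gabrp, Steap4, Fxyd6, Pfkl, Xpnpep2 and Serpina3n were called higher in collagen and lower in fibrin, and the estimates of Car9 had the same 2 signs. The averaged call of Car9 was lost without collagen control replicate 3 (-0.80, adjusted p = 0.0624), collagen TNF replicate 1 (-0.86) or replicate 2 (-0.94), fibrin control replicate 2 (-0.94) or fibrin TNF replicate 1 (-0.88) or replicate 3 (-0.91), with limma adjusted p up to 0.0655.

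The effect was higher in fibrin for Sele (1.75), Cd69 (1.53), Cd83 (1.18) and Il33 (1.16), an alarmin, each called higher in the average. It was higher as a smaller fall for Akr1c15 (0.86) and Mfap5 (0.57), and as a fall called in collagen alone for Fcmr (1.39) and Dio3 (1.20). Gdf15 (1.74), a stress cytokine, and Clybl (0.87) fell in collagen and rose in fibrin.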

How the results depend on the processing

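No setting reversed the direction of a named call. With no gel term, which puts the gel difference into the residual by construction, 27 genes rose and 12 fell. Without 1 array, 435 to 540 genes rose, 409 to 621 fell and 180 to 292 were small shared shifts (180 without fibrin control replicate 3), and 739 of the 1127 calls held in all 12 such fits. With the replicate block within each gel, 605 rose, 698 fell and 321 were small shared shifts. An additive model gave 428 and 480, quantile normalization 559 and 600, and median centring 513 and 589, each within 1.5 times. Of 212 named calls, 175 held in every setting other than no gel term, and 20 were lost in a fit without 1 array. Signal over background is not given in the files used here. Among lists with 0 falls, 1 fall was called in the acute-phase list (without collagen control replicate 2 or fibrin TNF replicate 3, and with the block), in antigen processing (without fibrin control replicate 1) and in JAK-STAT signalling (without collagen control replicate 1 or fibrin TNF replicate 2).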

Other observations

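Probe sets without a single gene name were read from a fit of the same kind run on all 27342 probe sets together, with the adjustment over all of them. Of 12245 such probe sets, 128 rose and 157 fell in the average, and they are not named here.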
